A study of Homo sapiens with 6 samples.

Results

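The 41 genes described here encode lysosomal hydrolases, lysosomal membrane proteins, subunits of the proton pump that acidifies the lysosome (the V-ATPase), the TFEB family of transcription factors, and the core machinery and cargo receptors of autophagy. They were taken by gene symbol from the 22701 genes of the deposited table, and all 41 were found there. Of these, 39 had a mean FPKM (fragments scaled to gene length and library size) of at least 1 over the 6 libraries and were tested; TFEB and MITF lay below that level. The 6 libraries hold polyadenylated RNA of LX-2, a human line derived from hepatic stellate cells and used to model the matrix-producing cells of the fibrotic liver. In every library the cells had received TGF-β (5 µg/mL as the submitters wrote it), and 3 libraries were made without and 3 with the addition of 20 µM ligustilide (LIG), a phthalide of Angelica and Ligusticum roots. The submitters' text calls the cells transfected with these agents, which is read here as treated. None of the 6 libraries lacked TGF-β. The genes can therefore be compared only between TGF-β alone and TGF-β with LIG. The time of treatment is not given. Whether the replicates came from separate cultures is not stated either, so a p-value here reflects only how these samples scatter, which may be technical. LX-2 is a single cell line, and its values do not stand for primary stellate cells.

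Lysosomes break down proteins, glycans and lipids with hydrolases that work at acid pH, and autophagy delivers cytoplasm to them in double-membrane vesicles. TFEB, TFE3 and MITF are related transcription factors that bind the CLEAR element, a palindrome built on CACGTG, in promoters of lysosomal and autophagy genes, and are held in the cytoplasm when mTORC1 is active. In stellate cells, autophagy is known for breaking down the retinoid-rich lipid droplets during activation. The amount of RNA shows neither where a factor sits in the cell nor the flow of material through autophagy.

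The promoters were searched for the CLEAR element because it is known from promoters of lysosomal and autophagy genes. A larger share among the members than among all genes was therefore likely beforehand. RefSeq promoters (GRCh38.p14, 250 bases before to 50 bases after each start) were matched by symbol for 30 of the 41 genes. The 8 letters GTCACGTG, on either strand, were found in promoters of 6 of these 30 genes (20%), against 5.62% of the 8740 tested genes with a promoter and 2.93% of all 27305 genes in the promoter table. Of the other listed lysosome and autophagy genes, 22 of the 115 matched held them (19.1%). The 6 were LAMP1, MCOLN1, CTSA, CTSD, GAA and ATP6V0D1, that is a membrane protein, an ion channel, 3 hydrolases and a pump subunit. The core CACGTG, which is part of both longer forms and is its own reverse complement, was found in the same 6 and in NEU1, 7 of 30 genes (23.3%, against 12.9% of tested genes). The full palindrome, which is these 8 letters followed by AC, stood in the promoters of GAA and MCOLN1 (6.67%, against 0.961% of tested genes and 6.09% of the other lysosome and autophagy genes). Each stretch below lies before the RefSeq start of its gene and is written 5′ to 3′ on the gene's strand, with GTCACGTG or its reverse complement in capitals. These 5 stretches were chosen after the search, because they hold the letters and at most 30 of their bases lie in a UTR of the GENCODE 29 annotation.
LAMP1: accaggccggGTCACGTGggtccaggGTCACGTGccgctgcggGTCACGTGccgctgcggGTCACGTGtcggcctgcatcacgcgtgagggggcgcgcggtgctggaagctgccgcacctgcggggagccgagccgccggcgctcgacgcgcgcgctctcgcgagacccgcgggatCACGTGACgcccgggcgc
MCOLN1: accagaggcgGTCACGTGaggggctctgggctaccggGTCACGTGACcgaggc
CTSD: cggccgcgccCACGTGACcggtccgggt
GAA: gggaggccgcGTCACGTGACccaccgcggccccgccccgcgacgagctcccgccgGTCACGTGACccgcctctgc
ATP6V0D1: cccccttatgGTCACGTGaggcgcttgc
The LAMP1 stretch (chr13:113297035-113297228, plus strand) holds 5 copies within 194 bases, and a sixth CACGTG spans the RefSeq start itself. The MCOLN1 stretch (chr19:7522571-7522623, plus strand) holds 2 copies of the core, and the copy 16 bases before the start is the full palindrome. GAA (chr17:80101493-80101567, plus strand) holds 2 full palindromes, and CTSD (chr11:1763957-1763984, minus strand) and ATP6V0D1 (chr16:67481201-67481228, minus strand) hold 1 copy each of the 8 letters. CTSA held 2 copies, 44 and 25 bases before its RefSeq start.

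The RefSeq starts used for the promoters are not always the outer ends of the GENCODE gene spans given below, which cover every annotated transcript. For LAMP1 and MCOLN1 they differ by 2 bases. The RefSeq start lies inside the GENCODE span by 25 bases for GAA, 80 for ATP6V0D1, 646 for CTSD and 1191 for CTSA. The CTSD and ATP6V0D1 stretches lie wholly within annotated GENCODE UTRs, as do 12 bases of the GAA stretch. The gene, strand and end of the transcript to which these UTRs belong were not checked. TFE3 and GABARAPL1, the pair of members with the smallest p-values, held no CACGTG in their promoter windows, whose RefSeq starts lie 129 and 419 bases inside the GENCODE spans.

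A match is a description of the letters and not evidence that a factor binds there. Among the 6 members with GTCACGTG, log2 changes with LIG ran from -0.02 to 0.21 with a median of 0.07. Among the 24 matched members without it, 22 were tested, and theirs ran from -0.15 to 0.26, also with a median of 0.07.

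The libraries held between 38251700 and 39102099 fragments assigned to genes, recovered from the steps in the FPKM values, so depth differed little between them. Of 10 stellate markers, 9 were in the table and 7 had a mean of at least 1. They summed to 3360 to 3570 FPKM in the TGF-β libraries and 3020 to 3430 FPKM under LIG. Most of this came from VIM (1737 to 2091 FPKM), and nearly all the rest from COL1A1, SPARC, TAGLN and TIMP1. In mean, COL1A1, SPARC and TAGLN were lower with LIG, and VIM and TIMP1 higher. Of the defining stellate markers, ACTA2 was at only 2.11 to 3.43 FPKM, DES was at or near 0 and LRAT was not in the table. The 8 macrophage markers, a lysosome-rich cell type, summed to 2.29 to 2.7 FPKM without LIG and 1.87 to 2.28 FPKM under it, and none reached a mean of 1. Of 6 hepatocyte markers, 2 were in the table, with sums of 3.54 to 4.07 FPKM without LIG and 3.3 to 4.88 FPKM under it, nearly all from SERPINA1. The 5 endothelial markers summed to 0.216 to 0.338 and 0.171 to 0.239 FPKM, and none reached a mean of 1. The 4 cholangiocyte markers, of which 2 reached a mean of 1, summed to 13.6 to 13.9 and 11.2 to 11.9 FPKM, mostly from SOX9, and their part in the results was not tested. TGF-β replicate 2 and LIG replicate 3 stood apart from the other 4 libraries. Their summed FPKM was 348518 and 362034, against 324022 to 328949 in the others, and their deviations from their group means correlated across the 10695 tested genes (r = 0.675, a description over genes).

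With LIG, no member passed the test over all genes. Of 39 members, 0 rose, 0 fell and 39 did not pass (limma on log2(FPKM + 1), Benjamini-Hochberg adjusted over 10695 genes, two-sided), while 0.692% of all genes tested passed (74 genes). By voom on the recovered fragments the count was also 0. The RNA is from whole cultures, so fewer cells of a kind and less RNA per cell cannot be told apart. The smallest adjusted p among the members was 0.262, for TFE3. At an unadjusted p under 0.05 there were 6 members, 5 higher and 1 lower with LIG, where 8.41% of all genes reached that level, 4.2% higher and 4.21% lower. The log2 changes of the members ran from -0.15 to 0.26, with a median of 0.08 beside 0.03 for all genes tested, and 29 of 39 were above 0 (74.4%, against 60.9% of all genes). For 37 of the 39 the unadjusted 95% interval of the difference lay within 0.5 of 0 on the log2 scale. The same held for 10137 of all 10695 genes tested, a like share. The exceptions among the members were CTSK and GLA. In 9 members all 3 libraries with LIG lay above all 3 without it, and in 1 all lay below. Over all genes, 15.8% were separated in this way, 9.07% upward and 6.73% downward. The 9 were MCOLN1, CTSA, CTSD, CTSL, ASAH1, TFE3, GABARAPL1, ATG7 and ULK1, and the 1 was LIPA.

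**Figure D1:**
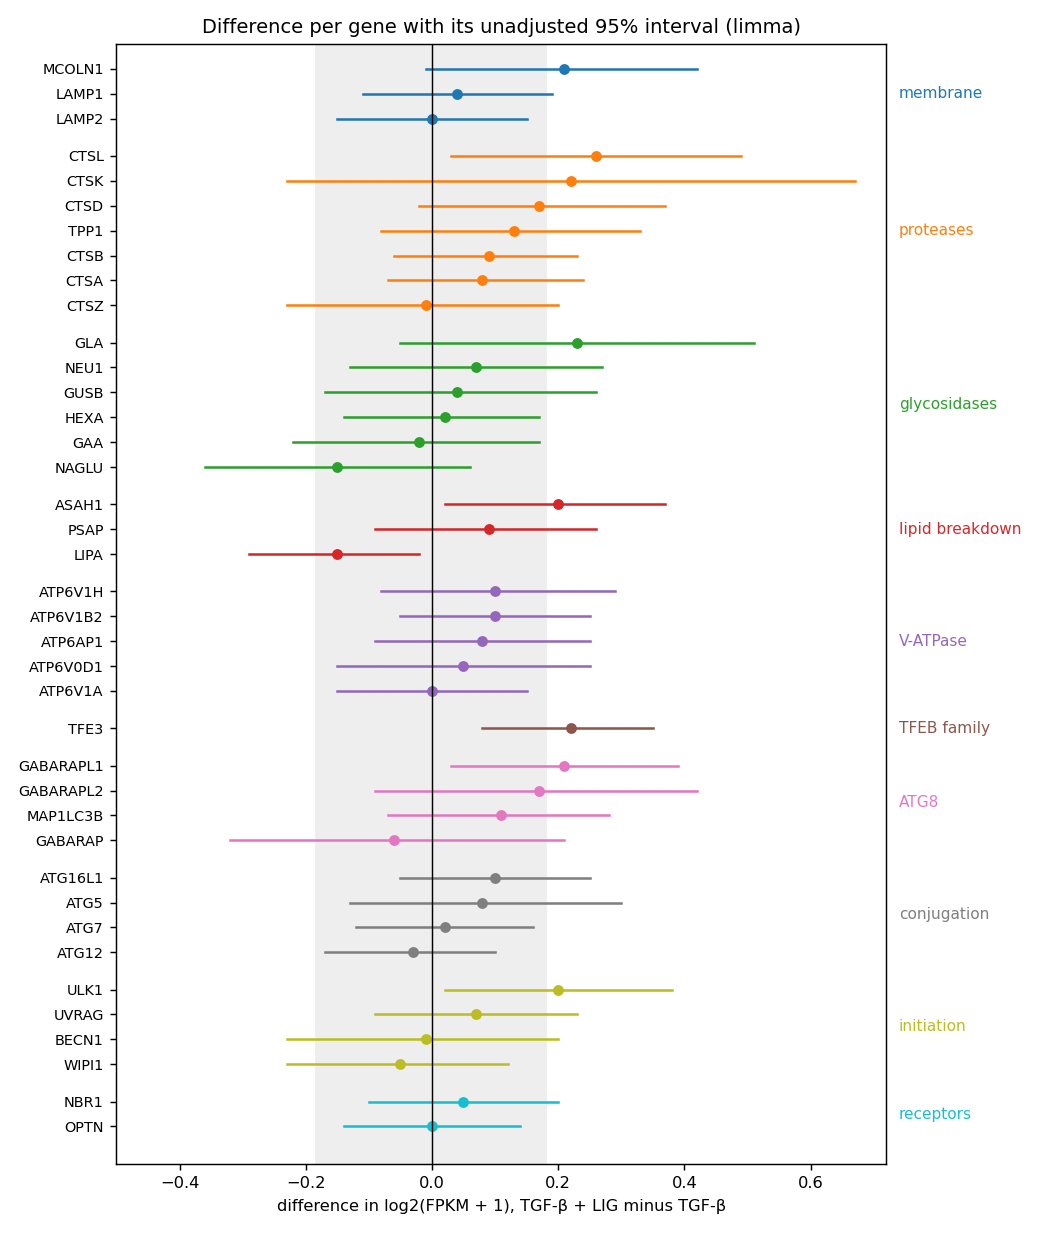
Difference in log2(FPKM + 1) between TGF-β with LIG and TGF-β alone for the 39 tested genes, by role, with points for the limma estimate, bars for its unadjusted 95% interval and a grey band from the 5th to the 95th percentile of all tested genes. The estimates lie between -0.15 and 0.26, and the widest interval is that of CTSK (-0.23 to 0.67).

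The 3 lysosomal membrane proteins had log2 changes from 0.00 to 0.21, and none passed. LAMP1, a heavily glycosylated protein that lines the lysosomal membrane (GRCh38 chromosome 13, 113297241 to 113323672), was among the most abundant members. In replicates 1, 2 and 3, in that order here and below, it was at 112.7, 115.4 and 117 FPKM in the TGF-β libraries, against 115.1, 116.4 and 124.4 FPKM under LIG. The groups overlapped, and the log2 change was 0.04 ± 0.06 (SE, limma adjusted p = 0.95). MCOLN1, the lysosomal calcium channel TRPML1 (chromosome 19, 7522626 to 7534009), was at 6.42, 4.88 and 6.13 FPKM in the TGF-β libraries, against 6.68, 6.90 and 6.89 FPKM under LIG. The groups did not overlap, with TGF-β replicate 2 the lowest of the 6 libraries, and the difference of 0.21 ± 0.09 did not pass (adjusted p = 0.61). It was 0.11 without TGF-β replicate 2. MCOLN1 exons overlap those of PNPLA6 on the same strand, and how such reads were counted is not stated. Exons of CTSD, TPP1, HEXA, NAGLU and GABARAP also overlap other annotated genes on the same strand. Overlaps on the other strand are named below for some members only, and BECN1, MAP1LC3B and OPTN have them too. LAMP2, a membrane protein needed for fusion with autophagosomes, was at 17.2 ± 0.34 FPKM (SD, n = 3) with TGF-β and 17.2 ± 1.06 FPKM under LIG.

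The 16 hydrolases, with the saposin precursor among them, ranged in log2 change from -0.15 to 0.26 around a median of 0.09. Of these, 12 were above 0 and none passed. The median was 0.02 with library weights and 0.03 without LIG replicate 3. Among the 7 proteases, CTSL, the cysteine protease cathepsin L (chromosome 9, 87725519 to 87731393), had the largest log2 change of any member. It was at 92.7, 110.9 and 100.7 FPKM in the TGF-β libraries, against 116.1, 111.6 and 137.7 FPKM under LIG. All 3 libraries with LIG were above the 3 without, but LIG replicate 2 exceeded TGF-β replicate 2 by little, and LIG replicate 3 was far above the rest. The change was 0.26 ± 0.10 with a 95% interval from 0.03 to 0.49 (adjusted p = 0.527), and 0.17 without LIG replicate 3. CTSD, the aspartic protease cathepsin D, was at 41.8, 43.0 and 41.9 FPKM in the TGF-β libraries, against 44.1, 45.3 and 54.1 FPKM under LIG. Here too the groups were separate and LIG replicate 3 was the highest, and the difference of 0.17 ± 0.08 (adjusted p = 0.663) was 0.08 without LIG replicate 3. CTSZ, a carboxypeptidase of the cathepsin family, was the most abundant protease at 158.8 ± 5.56 FPKM in the TGF-β libraries and 158 ± 18.7 FPKM under LIG. Its libraries without LIG (156.6, 165.1 and 154.6 FPKM) lay inside the range of those with LIG (151.1, 143.6 and 179.2 FPKM), and the difference was -0.01 ± 0.09 (adjusted p = 0.991), with no steady sign over the alternatives.

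Of the other proteases, CTSA, which protects β-galactosidase and neuraminidase in a complex, was at 52.8 ± 0.67 and 56.1 ± 3.95 FPKM, and CTSB, cathepsin B, at 32.6 ± 1.57 and 34.7 ± 0.99 FPKM. CTSA exons overlap those of PLTP and NEURL2 on the other strand. TPP1, a tripeptidyl peptidase, was at 22.9 ± 0.78 and 25.1 ± 2.92 FPKM. Unlike CTSL and CTSD, TPP1 had its lowest value with LIG in replicate 3 (22.03 FPKM, against 25.57 and 27.82 in the other pair). CTSK, a collagen-degrading cathepsin best known from osteoclasts, was the lowest of the 7. It was at 2.98, 3.31 and 6.11 FPKM in the TGF-β libraries, against 4.73, 4.54 and 5.05 FPKM under LIG. TGF-β replicate 3 alone lay above every other library, and the 95% interval from -0.23 to 0.67 was the widest of the 39 members. The difference was 0.22 ± 0.20 (adjusted p = 0.873), and -0.20 with library weights.

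The 6 glycosidases had log2 changes with a median of 0.03, the same as all genes, and none passed. GLA, α-galactosidase A (chromosome X, 101397803 to 101408012), was at 10.8, 14.1 and 13.6 FPKM in the TGF-β libraries, against 14.5, 13.6 and 17.6 FPKM under LIG. The groups overlapped and the difference of 0.23 ± 0.12 did not pass (adjusted p = 0.699). It was 0.12 without TGF-β replicate 1, 0.13 without LIG replicate 3 and 0.07 with library weights. NAGLU, which removes N-acetylglucosamine from heparan sulfate, was at 4.67, 4.84 and 4.37 FPKM in the TGF-β libraries, against 3.48, 4.33 and 4.49 FPKM under LIG, a difference of -0.15 ± 0.09 (adjusted p = 0.763) in which LIG replicate 1 was the lowest library. Without that library the NAGLU difference was -0.06. HEXA, the α chain of β-hexosaminidase and the most abundant glycosidase, was at 23.2, 24.6 and 24.0 FPKM in the TGF-β libraries, against 23.1, 23.6 and 26.0 FPKM under LIG. Its groups overlapped and its difference of 0.02 ± 0.07 (adjusted p = 0.986) turned below 0 under TPM, quantile and median scaling. NEU1, a sialidase, was at 14.0 ± 1.25 and 14.7 ± 1.23 FPKM, GUSB, β-glucuronidase, at 13.6 ± 0.87 and 14.1 ± 1.72 FPKM, and GAA, acid α-glucosidase, at 3.05 ± 0.27 and 2.98 ± 0.29 FPKM.

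The lipid-handling proteins held the single member with LIG libraries all below those without it. LIPA, lysosomal acid lipase, which frees cholesterol and fatty acids from esters (chromosome 10, 89213569 to 89414557), was at 17.8, 17.5 and 17.7 FPKM in the TGF-β libraries, against 16.4, 15.4 and 15.5 FPKM under LIG. The groups did not overlap, and each was tight. The difference was -0.15 ± 0.06 with a 95% interval from -0.29 to -0.02 (adjusted p = 0.516), and LIPA exons overlap those of IFIT2 on the other strand. IFIT2 itself was at 25.5 ± 1.21 FPKM in the TGF-β libraries and 22.8 ± 0.962 FPKM under LIG, also lower in value (-0.16 ± 0.07, adjusted p = 0.574). ASAH1, acid ceramidase, was at 5.68, 6.73 and 6.52 FPKM in the TGF-β libraries, against 7.15, 7.57 and 7.39 FPKM under LIG. These groups did not overlap either, with a difference of 0.20 ± 0.08 (95% interval from 0.02 to 0.37, adjusted p = 0.513), which was 0.13 without TGF-β replicate 1. PSAP, the precursor of the saposins that present sphingolipids to hydrolases, was the most abundant of all 41 genes. It was at 170.9, 188.2 and 181.4 FPKM in the TGF-β libraries, against 186.8, 183.6 and 203.9 FPKM under LIG. The groups overlapped, and the difference of 0.09 ± 0.08 (adjusted p = 0.871) was 0.04 without LIG replicate 3 and 0.05 without TGF-β replicate 1.

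**Figure D2:**
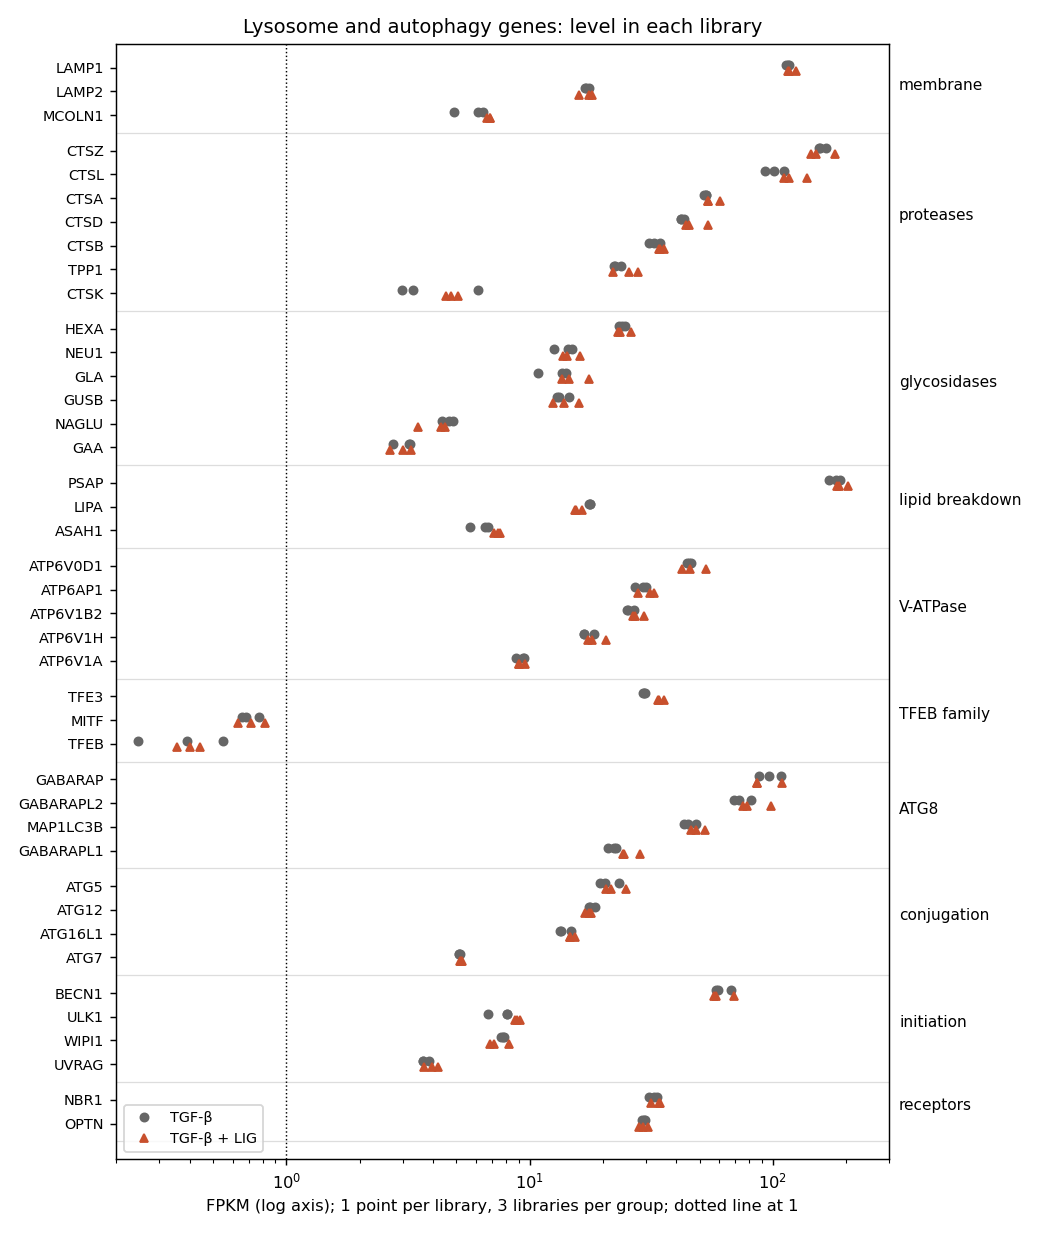
FPKM of the 41 genes in each library on a log axis, by role, with circles for the 3 TGF-β libraries and triangles for the 3 libraries of TGF-β with LIG. PSAP and CTSZ are the most abundant, and TFEB and MITF lie below the dotted line at an FPKM of 1.

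The 5 V-ATPase members had log2 changes from 0.00 to 0.10 and a median of 0.08, and none passed. The median was 0.03 without LIG replicate 3 and 0.12 without LIG replicate 1. The pump couples ATP hydrolysis by its V1 sector to proton transport by its V0 sector. ATP6V1B2, a subunit of the catalytic head (chromosome 8), was at 25.04, 26.84 and 25.33 FPKM in the TGF-β libraries, against 27.1, 26.6 and 29.4 FPKM under LIG. The groups overlapped (difference 0.10 ± 0.07, adjusted p = 0.784, and 0.06 without LIG replicate 3). ATP6V1H, a regulatory V1 subunit, was at 16.8, 18.3 and 16.7 FPKM in the TGF-β libraries, against 17.33, 17.97 and 20.67 FPKM under LIG, also with overlap (0.10 ± 0.08, adjusted p = 0.835, and 0.03 without LIG replicate 3). ATP6V0D1, which joins V0 to the central stalk and was the most abundant of the 5, was at 45.1, 46.2 and 44.4 FPKM in the TGF-β libraries, against 42.3, 45.7 and 52.9 FPKM under LIG. LIG replicate 1 was the lowest and LIG replicate 3 the highest of its 6 libraries. Its difference of 0.05 ± 0.09 (adjusted p = 0.958) was -0.04 without LIG replicate 3. ATP6AP1, an accessory protein of the pump, was at 28.8 ± 1.44 and 30.5 ± 2.33 FPKM. ATP6V1A, the catalytic A subunit, was at 9.22 ± 0.41 and 9.22 ± 0.29 FPKM, with a 95% interval of the difference from -0.15 to 0.15.

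Of the TFEB family, TFE3 was the abundant member in these cells. TFE3 (chromosome X, 49028726 to 49043486) was at 29.6, 29.1 and 29.8 FPKM in the TGF-β libraries, against 33.8, 33.9 and 35.7 FPKM under LIG. The groups were well apart and each was tight, with SDs of 0.36 and 1.06 FPKM on means of 29.5 and 34.5 FPKM. Its ratio of mean FPKM was 1.168. The log2 difference of 0.22 ± 0.06 had a 95% interval from 0.08 to 0.35 and the smallest p of the members (limma adjusted p = 0.262). Without TGF-β replicate 2 and LIG replicate 3 together, TFE3 passed (0.18 ± 0.04, adjusted p = 0.0257), as it did with summed FPKM as a covariate (0.21, adjusted p = 0.00715) and with library weights (0.18, adjusted p = 0.0034). Adjusted p for TFE3 ran from 0.0034 to 0.796 over all fits.

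TFEB was at 0.55, 0.25 and 0.39 FPKM in the TGF-β libraries, against 0.35, 0.40 and 0.44 FPKM under LIG, on 35 to 77 fragments per library. MITF was at 0.77, 0.66 and 0.68 FPKM in the TGF-β libraries, against 0.72, 0.82 and 0.63 FPKM under LIG, on 156 to 198 fragments. Values of both genes overlapped between groups, and with no filter on low values neither passed (log2 differences of 0.01 and 0.02, adjusted p = 1 and 0.976). TFEC, the fourth relative, was at 1 to 4 fragments per library.

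The 14 genes of the autophagy core and its receptors ranged in log2 change from -0.06 to 0.21 around a median of 0.06. Of these, 10 were above 0 and none passed. The median was 0.03 without LIG replicate 3. The ATG8 proteins are small ubiquitin-like modifiers that are attached to lipid on the growing autophagosome. GABARAPL1 (chromosome 12, 10212458 to 10223130) was at 22.3, 22.6 and 21.1 FPKM in the TGF-β libraries, against 24.1, 24.4 and 28.3 FPKM under LIG. The groups did not overlap, and LIG replicate 3 was the highest library. The difference was 0.21 ± 0.08 with a 95% interval from 0.03 to 0.39 (adjusted p = 0.484). It ran from 0.14 to 0.25 on leaving out 1 library. GABARAPL2 was at 69.1, 81.5 and 72.6 FPKM in the TGF-β libraries, against 78.3, 75.3 and 98.3 FPKM under LIG, with overlap between the groups (0.17 ± 0.11, adjusted p = 0.799). The GABARAPL2 difference was 0.05 without LIG replicate 3 and 0.11 without TGF-β replicate 1. GABARAP, the most abundant ATG8 gene, was at 87.5, 108.3 and 96.7 FPKM in the TGF-β libraries, against 86.4, 86.1 and 108.9 FPKM under LIG. Its 2 highest libraries were TGF-β replicate 2 and LIG replicate 3, and the difference was -0.06 ± 0.12 (adjusted p = 0.966). MAP1LC3B, the LC3 form most used as an autophagosome marker, was at 45.4 ± 2.77 and 49.0 ± 3.52 FPKM. It has a near-identical copy, MAP1LC3B2, at 1.93 ± 0.295 and 2.31 ± 0.11 FPKM, so reads could have been split between them in a way that is not stated.

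**Figure D3:**
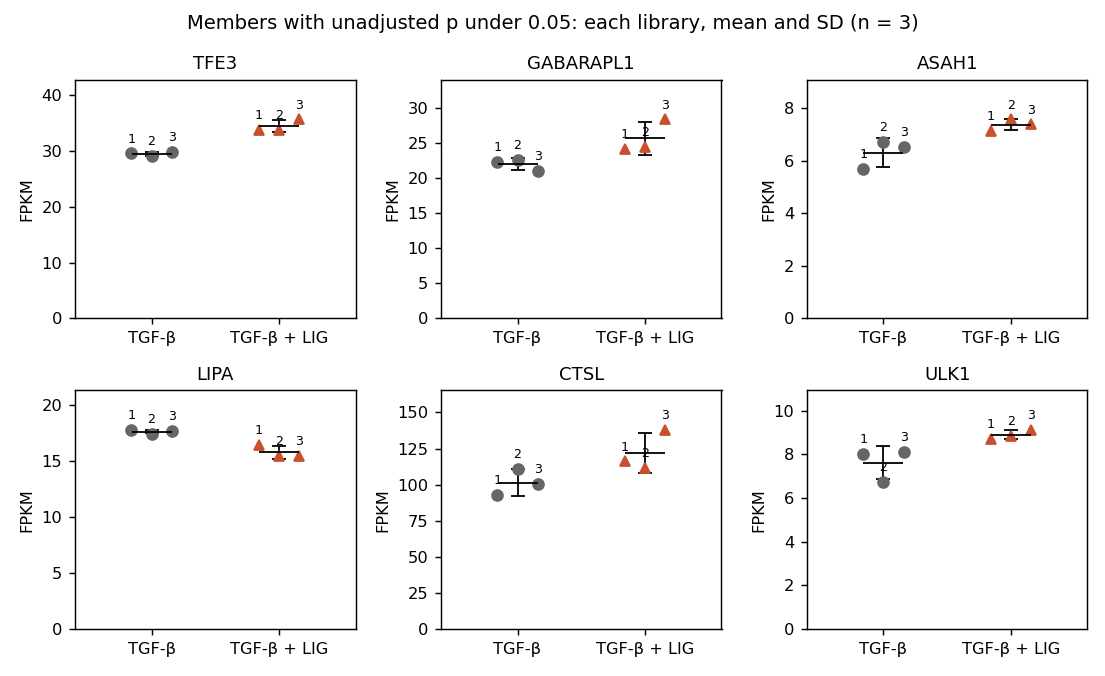
FPKM of the 6 members with an unadjusted p under 0.05, with 1 point per library numbered by replicate and bars for the mean and SD (n = 3) of each group. In all 6 the groups do not overlap, LIPA is lower with LIG and the other 5 are higher, and in TFE3, CTSL, GABARAPL1 and ULK1 LIG replicate 3 is the highest library.

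Among the genes that conjugate ATG8 and ATG12, ATG16L1, which places the conjugating complex on the membrane, was at 13.5, 14.8 and 13.3 FPKM in the TGF-β libraries, against 15.4, 14.6 and 14.7 FPKM under LIG. TGF-β replicate 2 lay among the LIG libraries (difference 0.10 ± 0.07, adjusted p = 0.791). ATG5, to which ATG12 is joined, was at 19.4, 23.2 and 20.3 FPKM in the TGF-β libraries, against 20.6, 21.5 and 24.8 FPKM under LIG, with overlap (0.08 ± 0.09, adjusted p = 0.916). The ATG5 difference ran from 0.01 without LIG replicate 3 to 0.16 without TGF-β replicate 2. ATG7, the activating enzyme of both conjugation systems, was at 5.13 ± 0.02 and 5.22 ± 0.05 FPKM. It was one of the 9 members without overlap although its means differed by 1.66%. ATG12 was at 17.9 ± 0.54 and 17.4 ± 0.47 FPKM. Exons of ATG7 and ATG12 overlap genes on the other strand (VGLL4 and AP3S1).

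Of the genes that start the autophagosome, ULK1, the kinase that mTORC1 restrains (chromosome 12, 131894651 to 131923167), was at 8.03, 6.74 and 8.10 FPKM in the TGF-β libraries, against 8.71, 8.87 and 9.11 FPKM under LIG. The groups did not overlap, and TGF-β replicate 2 was the lowest library. The difference was 0.20 ± 0.08 with a 95% interval from 0.02 to 0.38 (adjusted p = 0.527), and it was 0.13 without TGF-β replicate 2. BECN1, a subunit of the lipid kinase complex that follows ULK1, was at 59.7, 67.3 and 58.2 FPKM in the TGF-β libraries, against 58.1, 57.1 and 69.0 FPKM under LIG. Its 2 highest libraries were again TGF-β replicate 2 and LIG replicate 3 (difference -0.01 ± 0.09, adjusted p = 0.991, with a sign that varied between fits). UVRAG, a partner of BECN1, was at 3.63, 3.84 and 3.65 FPKM in the TGF-β libraries, against 3.96, 4.21 and 3.67 FPKM under LIG, with overlap (0.07 ± 0.07, adjusted p = 0.89, and from 0.03 to 0.11 on leaving out 1 library). WIPI1, which binds the lipid made by that complex, was at 7.72 ± 0.12 and 7.42 ± 0.71 FPKM.

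The pair of cargo receptors had log2 changes of 0.05 and 0.00. NBR1, a receptor for ubiquitin-tagged cargo, was at 33.3, 30.9 and 32.3 FPKM in the TGF-β libraries, against 34.4, 34.0 and 31.4 FPKM under LIG (difference 0.05 ± 0.07, adjusted p = 0.944, and from 0.02 to 0.09 on leaving out 1 library). OPTN, optineurin, a receptor for damaged mitochondria and bacteria, was at 29.41, 29.69 and 28.99 FPKM in the TGF-β libraries, against 29.3, 28.2 and 30.7 FPKM under LIG. Both genes overlapped between groups, and the OPTN difference had a 95% interval from -0.14 to 0.14 (adjusted p = 1).

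Many members shared a pattern across libraries that did not follow the groups. LIG replicate 3 was the highest of the LIG libraries in 28 of 39 members (71.8%, against 50.3% of all genes tested), and TGF-β replicate 2 the highest of its group in 24 (61.5%, against 48.8%). Among the 20 members at or under their median gene length, LIG replicate 3 was the highest in 18, with a median ratio of 1.17 to the mean of the other 2 libraries. Among the 19 longer members it was the highest in 10, with a median ratio of 1.037. The ratio reached 1.279 in GABARAPL2 (974 bases) and was 0.899 in LAMP2 (9388 bases). The ATG8 genes carried it in 4 of 4 members, with median ratios of 1.215 in LIG replicate 3 and 1.127 in TGF-β replicate 2. The members at or under the median length were also more abundant (median FPKM 45.5, against 14.4 for the longer ones). Other genes of like length were not compared, so the split is not shown to be particular to the members. The part of length in any difference between the groups was not tested.

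**Figure D4:**
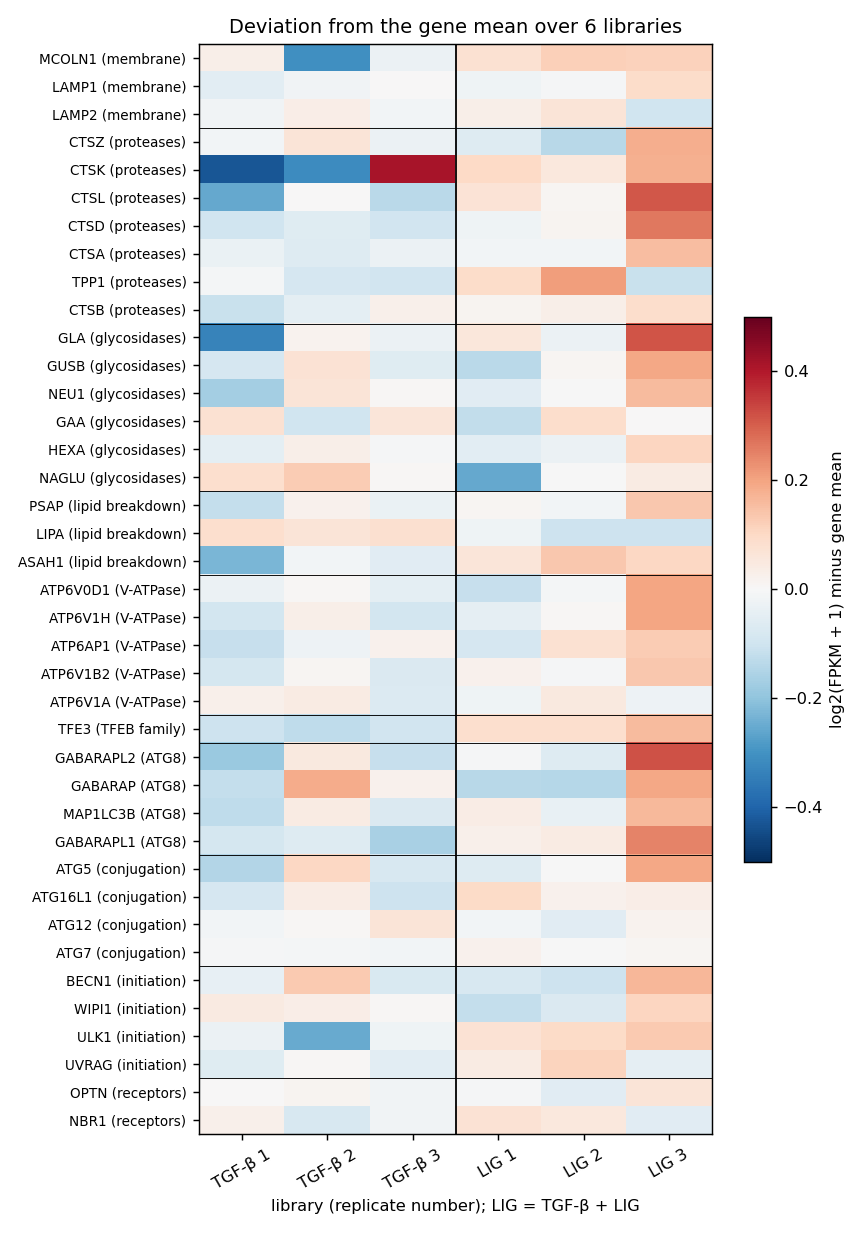
Deviation of each tested member from its mean over the 6 libraries, in log2(FPKM + 1), with rows grouped by role and ordered by gene length within a role and columns for the libraries. Red marks a value above the gene's mean and blue a value below it. LIG replicate 3 is the highest LIG library in 28 of the 39 rows. CTSK has the deepest colours, low in TGF-β replicate 1 and high in TGF-β replicate 3.

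**Figure D5:**
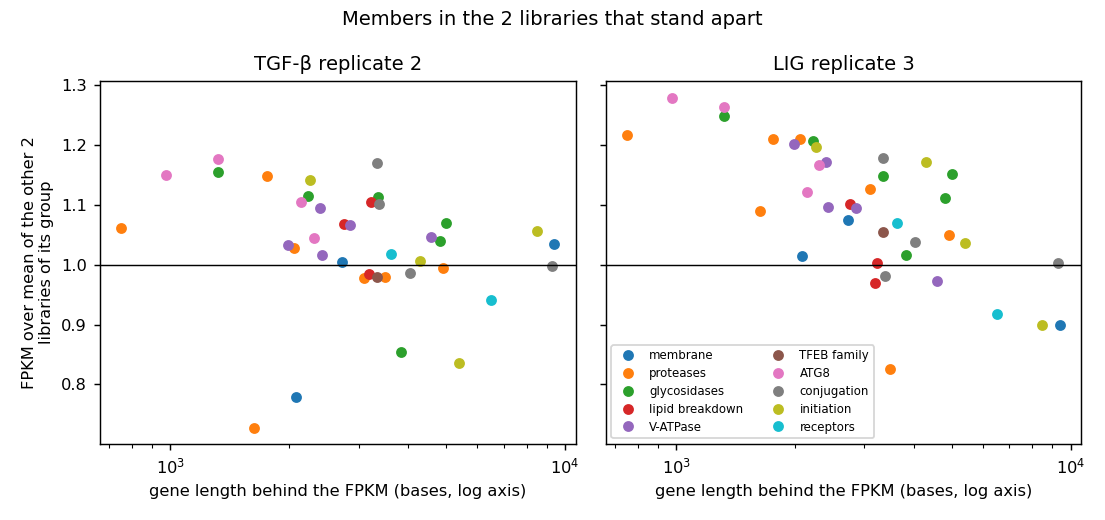
FPKM in the second TGF-β library and the third LIG library, each divided by the mean of the other 2 libraries of its group, against gene length on a log axis, with 1 point per tested member coloured by role. In LIG replicate 3 the shortest members lie up to 1.279 and the longest near or under 1.

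Without TGF-β replicate 2 and LIG replicate 3 together, 2 members passed, CTSL (0.23 ± 0.04, adjusted p = 0.025) and TFE3, both higher with LIG, where 4.65% of all genes passed, 1.95% upward and 2.69% downward. The 4 libraries left are those closest to each other in summed FPKM. With summed FPKM as a covariate, 3 members passed (CTSL with adjusted p = 0.00454, GABARAPL1 with 0.0314, and TFE3), all higher, against 7.11% of all genes (3.12% upward and 3.98% downward). With library weights, 7 members were higher and 1, LIPA, lower, against 17.7% of all genes, 10.4% upward and 7.24% downward. The 7 were ASAH1, ATG16L1, CTSL, GABARAPL1, TFE3, TPP1 and UVRAG. TPP1 had the largest change with these weights (0.26 ± 0.04, adjusted p = 0.00422), against 0.13 ± 0.09 in the main fit (adjusted p = 0.808). Over these 3 alternative fits the median log2 change of the members was 0.06, 0.06 and 0.04. No member passed when any single library was left out.

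Other genes of the same pathways were read from a list of 147, of which 145 were in the table and 125 were tested. Of these, 1 fell, 0 rose and 124 did not pass, beside 0.505% of all genes lower and 0.187% higher; the median log2 change was 0.06. The 1 was BNIP3, a mitophagy receptor of the outer mitochondrial membrane (chromosome 10, 131966455 to 131982013). BNIP3 was at 59.2, 66.2 and 61.2 FPKM in the TGF-β libraries, against 37.4, 40.9 and 45.7 FPKM under LIG, a difference of -0.58 ± 0.09 (adjusted p = 0.029). The groups were far apart, but BNIP3 no longer passed without any single library other than LIG replicate 3 (adjusted p up to 0.182), with no filter on low values (0.136) or with the replicate block (0.0982). BNIP3L, its close relative, was at 57.0, 61.0 and 57.4 FPKM in the TGF-β libraries, against 44.8, 46.8 and 44.6 FPKM under LIG. These groups were also separate, and the difference of -0.36 ± 0.06 missed the threshold (adjusted p = 0.0521). BNIP3L passed without TGF-β replicate 2 and LIG replicate 3 together (adjusted p = 0.0023), with the covariate (0.000275), with library weights (0.000218) and without LIG replicate 3 alone (0.0455), and its adjusted p reached 0.314 with the replicate block.

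SQSTM1, the p62 receptor that links ubiquitin-tagged cargo to ATG8 proteins and is also an NRF2 target, was at 65.3, 75.1 and 69.3 FPKM in the TGF-β libraries, against 91.95, 92.01 and 107.3 FPKM under LIG. All 3 LIG libraries were higher, and the difference of 0.47 ± 0.09 missed the threshold (adjusted p = 0.0729). SQSTM1 passed without TGF-β replicate 2 and LIG replicate 3 together (adjusted p = 0.000573), with the covariate (1.8e-05) and with library weights (8.56e-05), and its adjusted p reached 0.402 on leaving out 1 library. CTSH, an aminopeptidase of the cathepsin family, was at 2.51, 2.94 and 2.89 FPKM in the TGF-β libraries, against 2.09, 2.15 and 2.25 FPKM under LIG, lower in value with LIG and without overlap (-0.26 ± 0.07, adjusted p = 0.285). CTSH passed with the covariate (adjusted p = 0.0313) and with library weights (0.00319), and not without both libraries (0.127). The fits named here for BNIP3L, SQSTM1 and CTSH are not all those in which a gene of the 3 passed. With all 6 libraries, 2 listed genes passed with a mean FPKM of at least 5, TPM or median centring. With quantile normalization 3 passed. The 13 other tested V-ATPase genes had log2 changes from 0.01 to 0.24, and none passed. Of 34 other hydrolases, 21 membrane and sorting proteins, and 19 genes of mTORC1 and its lysosomal anchor, none passed either, with medians of 0.03, 0.05 and 0.05. Of the other autophagy genes, 38 were tested, BNIP3 among them.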

How the data were processed

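Polyadenylated RNA of 6 LX-2 libraries was sequenced after TRIzol extraction and VAHTS Universal V6 library preparation, per the labels' protocols. The authors deposited FPKM values in 1 table, as its headers state. Named in the submitters' processing notes, without roles, are fastp, HISAT2 2.1.0, DESeq2 and GRCh38.p13; the counting tool, annotation and use of strand are not given in the sources used here. Fragments were recovered for 22699 of 22701 genes as whole multiples of each gene's FPKM step (tolerance 0.01), which also gives the gene length. They served for depth and 1 alternative.

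The 10695 genes whose FPKM averaged 1 or more went into a limma 3.58.1 fit of log2(FPKM + 1) in R 4.3.3 (group only, mean-variance trend, 4 residual and 4.10 prior degrees of freedom, two-sided, Benjamini-Hochberg at 0.05), LIG minus TGF-β. Fold changes on this scale understate those of low genes. With 3 libraries a side, the smallest p of an exact permutation test would be 0.1. Intervals are 95% and unadjusted. The fit was run on simulated data with independent noise in each library. That simulation lacked the shift shared by TGF-β replicate 2 and LIG replicate 3. It gives no measure of how well changes as small as those of the members are found here. Members, lists and rules were chosen with earlier results of these data known. Described with every library were, in each role, the pair of genes with the smallest p and the most abundant gene, and, outside the 41, the 4 listed genes with the smallest p. CTSK, TFEB and MITF were added after their values were seen. Alternatives were other pseudocounts (0.1, 0.5), filters, scalings, variance models, library weights, summed FPKM as covariate, the replicate block, voom and leaving out libraries. Coordinates and exon overlaps are from GENCODE 29 (GRCh38), and promoters from RefSeq (GRCh38.p14). Python 3.11.15, pandas 2.3.3, numpy 2.4.6 and matplotlib 3.10.9 were used.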

Additional observations from a re-analysis of the deposited data

How the results depend on the processing

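The count of members that passed was 0 in all fits but 3: it was 8 with library weights, 3 with summed FPKM as covariate and 2 without TGF-β replicate 2 and LIG replicate 3 together. The count over all genes (74) was 14 with no filter, 1891 with library weights, 760 with the covariate, 22 with the replicate block, 497 without both libraries, and 11 to 93 on leaving out 1 library. Libraries of the same replicate number did not all deviate together (correlations of deviations 0.469, -0.574 and -0.337 for numbers 1 to 3). This cannot decide whether the numbers pair the libraries. The deviations carry the shift that TGF-β replicate 2 and LIG replicate 3 share (r = 0.675), and the labels state no shared batch. With the block no member passed and BNIP3 lost its call. The count of other lysosome and autophagy genes (1) was 0 with no filter or the replicate block, 2 with a mean FPKM of at least 5, TPM or median centring, 3 with quantile normalization, 28 with library weights, 11 with the covariate, 5 without both libraries, and 0 to 2 on leaving out 1 library. The median log2 change of the members lay between 0.04 and 0.11 over all fits. The causes were not tested.

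Of 25 members chosen by the rule, 18 kept their direction in every fit. The 7 others lay near 0. LAMP1 was -0.0008 with library weights. HEXA was -0.004 with TPM, -0.01 with quantile normalization, -0.005 with median centring, -0.02 with library weights, -0.003 with the covariate and -0.01 without both libraries, and from -0.03 to 0.05 on leaving out 1 library. OPTN was -0.02 with TPM, -0.03 with quantile normalization, -0.02 with median centring, -0.02 with library weights, -0.01 with the covariate and -0.02 without both libraries, and from -0.03 to 0.03 on leaving out 1 library. ATP6V0D1 was -0.02 without both libraries. On leaving out 1 library ATP6V0D1 ran from -0.04 to 0.12, GABARAP from -0.17 to 0.02, CTSZ from -0.11 to 0.05 and BECN1 from -0.10 to 0.05. The tested member with the fewest fragments was CTSK (187 to 385 per library), and the part of counting error in the members' spread was not tested.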
